A study of Mus musculus with 9 samples.

Results

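The genes described here are 10 immediate early genes of 3 families and a companion, namely *Egr1*, *Egr2*, and *Egr3*, *Nr4a1*, *Nr4a2*, and *Nr4a3*, *Ier2*, *Ier3*, and *Ier5*, and *Btg2*. They were chosen by symbol among the 50559 genes listed, and all 10 were found and passed the low-count filter that left 16618 genes for testing. They were measured by RNA-Seq in CD45+CD11b+ cells sorted from the quadriceps of *mdx* mice, which lack dystrophin and are a model of Duchenne muscular dystrophy. All 9 libraries come from *mdx* mice with 7 days of treatment that were 4.5 weeks old, so that no healthy muscle is among them. The 3 vehicle libraries (VEH) come from mice given sucralose-flavored MediDrop as drinking water. The 3 spironolactone libraries (SPR) come from mice given the same with spironolactone, a mineralocorticoid receptor antagonist, and the 3 prednisolone libraries (PRD) from mice given it with prednisolone, a glucocorticoid. Each library is a pool of cells from 3 mice, both sexes were used in each group, and dead cells were not gated out, so that a replicate is a pool and not an animal. Each library held 31469815 to 32943512 counts on genes.

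Immediate early genes are transcribed within minutes of a stimulus, because the factors that switch them on, such as SRF with its ETS partners and CREB, are already in the cell and are activated by kinases. EGR1, EGR2, and EGR3 are zinc finger transcription factors, the NR4A proteins are orphan nuclear receptors that act without a known hormone, IER2 and IER5 share a domain that IER3 lacks, and BTG2 is an antiproliferative protein that recruits the CCR4-NOT deadenylase to messenger RNA. In macrophages these genes are known to respond to Toll-like receptor signals, adhesion, and growth factors, and in solid tissue many of them are also known to be induced while cells are dissociated and sorted.

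The sequences upstream of the starts are shown for 4 of the genes, because several of the genes carry the letters of classical immediate early inputs there. Capitals mark a CArG box, the site of SRF, or TGACG on either strand, the CREB half-site (CGTCA where it lies on the other strand). Positions are on GRCm39, and each stretch is written 5′ to 3′ on the strand of its gene, from the GENCODE canonical start region.
Egr2, chr10:67373578-67373658, plus strand: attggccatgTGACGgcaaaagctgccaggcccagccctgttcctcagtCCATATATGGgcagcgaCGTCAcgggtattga
Ier2, chr8:85389509-85389536, minus strand: ggtgttgcagTGACGTCActctcagtat
Nr4a3, chr4:48045064-48045114, plus strand: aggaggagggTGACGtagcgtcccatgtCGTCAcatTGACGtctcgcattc
Btg2, chr1:134007042-134007069, minus strand: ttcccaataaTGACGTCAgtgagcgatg

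The *Egr2* stretch held a CREB half-site, a CArG box, and a CREB half-site on the other strand, in that order. Upstream letters were scanned for 9 of the 10 genes. In the 300 bases upstream of 21751 canonical starts, a CArG box was found in 1.7% of promoters, and among the 9 genes in *Egr2*. TGACG was found on either strand in 19.9% of promoters and in 6 of the 9 genes, namely *Egr1*, *Egr2*, *Ier2*, *Nr4a1*, *Nr4a3*, and *Btg2*. In *Ier2* and *Btg2* the half-sites of both strands overlap in the palindrome TGACGTCA. The windows of *Ier3*, *Ier5*, and *Nr4a2* held neither sequence. Of the sites that the proteins themselves bind, the EGR site GCGNGGGCG was in 4.71% of promoters and in *Btg2* alone among the 9, and the NR4A site AAAGGTCA was in 1.42% and in none of the 9. A heat shock element of 3 alternating blocks was in 0.483% of promoters and in none of the 9. Both strands were searched for each, and a match is a description of the letters and not evidence of binding.

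In vehicle cells most of these genes were abundant. In CPM, which scale counts to the size of the library, *Nr4a1* had the highest level, 810 ± 17.4 (SD, n = 3), which is above 99.2% of the genes tested, and *Egr3* the lowest, 10.1 ± 0.640 (SD, n = 3), above 48.2%. Per length, in TPM, which also divide by transcript length, the vehicle order was *Ier3* (1364), *Ier2* (577), *Ier5* (528), *Egr1* (526), *Nr4a1* (329), *Btg2* (208), *Egr2* (75.6), *Nr4a3* (53.8), *Nr4a2* (21.0), and *Egr3* (9.43). The neighbors *Ier2*, *Ier5*, and *Egr1* are not separated in that order, since the vehicle SD of *Egr1* alone was 93.2 TPM on a mean of 526 TPM. TPM rests on summed exon lengths. The annotated genes of *Egr2*, *Nr4a1*, *Nr4a2*, and *Btg2* begin upstream of their canonical starts, so that their lengths (10903 bases for *Nr4a1*) include exons of other transcripts, and their TPM are understated if the canonical form prevails.

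With prednisolone, *Ier5* fell, and it was the one gene of the 10 to pass the test. *Ier5* encodes a nuclear protein known to work with heat shock factor 1, and it lies at chr1:154972107-154975382 on the minus strand. It was at 372, 403, and 401 CPM in vehicle libraries 1 to 3, at 381, 346, and 324 CPM in spironolactone libraries, and at 236, 206, and 183 CPM in prednisolone libraries. All 3 prednisolone libraries were thus below every vehicle and every spironolactone library, and the vehicle and spironolactone libraries overlapped. The fall was 1.88-fold (log2 fold change −0.91 ± 0.11 SE, adjusted p = 0.00116, edgeR quasi-likelihood test), the ninth smallest p of 16618. Against vehicle, 1.76% of all genes tested passed the threshold of 0.05 in either direction and 0.758% passed it as lower.

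*Ier5* differed between the drugs by a test of that difference itself. It was 1.68-fold higher with spironolactone than with prednisolone (log2 fold change 0.75 ± 0.11 SE, adjusted p = 0.00212, edgeR), where 5.17% of all genes passed. For spironolactone against vehicle the log2 fold change was −0.16 (95% interval −0.39 to 0.06, adjusted p = 0.687, edgeR), an interval that does not reach the change seen with prednisolone. *Ier5* passed the test against vehicle in all 8 other analyses and without each of the 9 libraries in turn, with adjusted p between 5.25e-13 and 0.0138, and the difference between the drugs did so too, with adjusted p between 1.03e-08 and 0.0200. Its SD within groups, 0.13 on the log2 scale, was the smallest of the 10, next to a median of 0.22 over all genes.

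**Figure D1:**
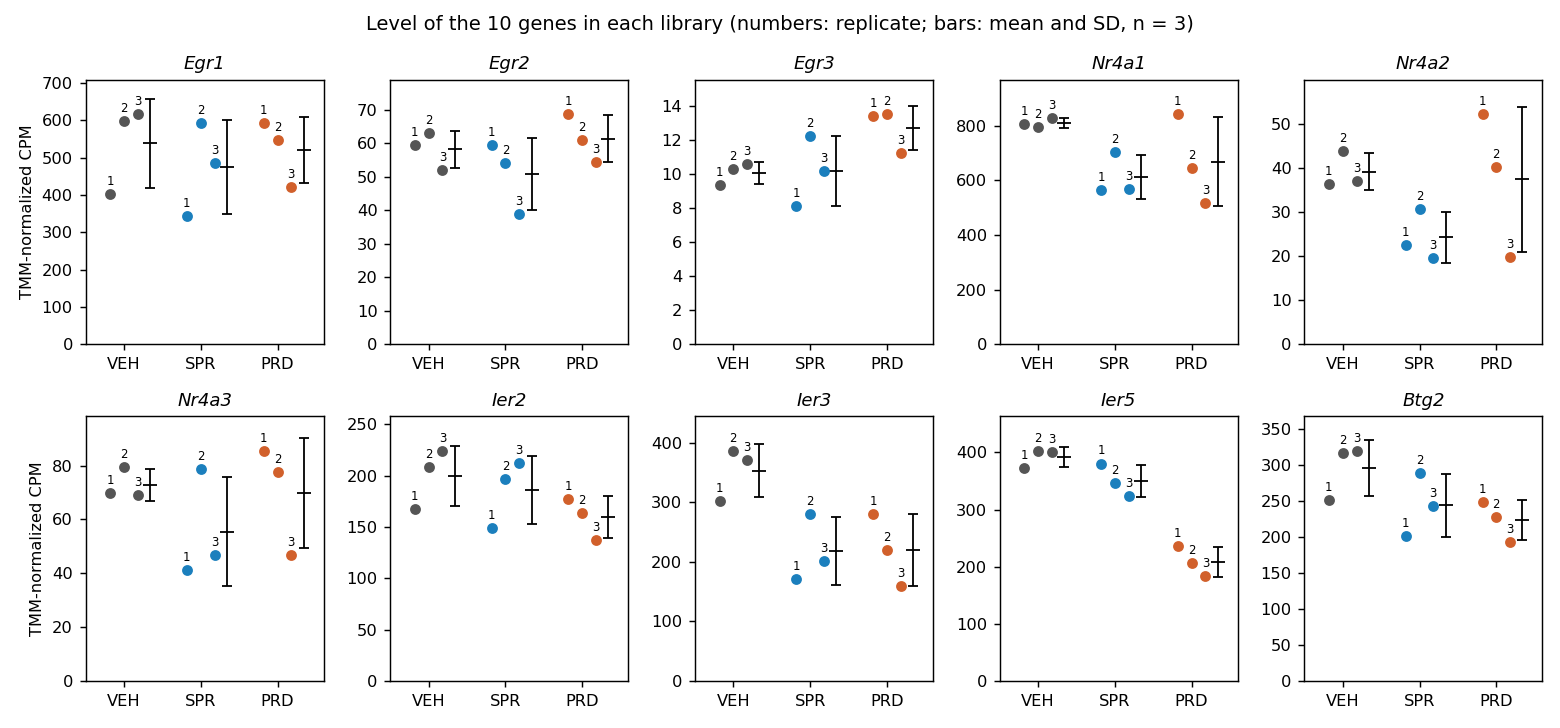
Level of each of the 10 genes in CPM in each library of vehicle (VEH), spironolactone (SPR), and prednisolone (PRD), with replicate numbers beside the points and the mean and SD (n = 3) as bars to the right. The 3 PRD libraries of *Ier5* sit between 183 and 236 CPM, below all others, whereas for *Egr1* the 3 groups overlap.

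*Ier3* had lower levels with both drugs and did not pass the test with either. It encodes a small protein that is known to modulate survival and ERK signaling. It was at 302, 386, and 370 CPM in vehicle libraries, at 171, 281, and 201 CPM in spironolactone libraries, and at 280, 219, and 159 CPM in prednisolone libraries. Every treated library was below every vehicle library, and the treated libraries spread over a wide range. On the log2 scale the change was −0.68 ± 0.22 SE with prednisolone (adjusted p = 0.190, edgeR) and −0.70 ± 0.22 SE with spironolactone (adjusted p = 0.343, edgeR). Between the drugs the difference was −0.01 (95% interval −0.51 to 0.49). Both comparisons with vehicle use the same 3 vehicle libraries, so that they are not separate observations.

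*Ier2*, a nuclear protein of the immediate response, was at 168, 208, and 224 CPM in vehicle, 149, 197, and 212 CPM in spironolactone, and 177, 164, and 138 CPM in prednisolone libraries. The groups overlapped, and the log2 fold change was −0.33 ± 0.15 SE with prednisolone (adjusted p = 0.332, edgeR) and −0.10 ± 0.15 SE with spironolactone (adjusted p = 0.893).

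*Btg2* behaved much as *Ier2* did from library to library. It was at 251, 316, and 319 CPM in vehicle, 201, 288, and 243 CPM in spironolactone, and 249, 227, and 193 CPM in prednisolone libraries. All prednisolone libraries were below all vehicle libraries, though by a narrow margin at the top, and spironolactone libraries overlapped vehicle. The fitted change was −0.40 ± 0.14 SE on the log2 scale with prednisolone (adjusted p = 0.193, edgeR) and −0.28 ± 0.14 SE with spironolactone (adjusted p = 0.581).

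Among the EGR genes none passed the test in any comparison by edgeR, DESeq2, or limma-voom, and none had an unadjusted p below 0.05 by edgeR. *Egr1*, the best known of the family, was at 402, 597, and 617 CPM in vehicle, 344, 594, and 485 CPM in spironolactone, and 594, 547, and 421 CPM in prednisolone libraries. The 3 ranges lay over one another, with a log2 fold change of −0.05 ± 0.22 SE with prednisolone and −0.18 ± 0.22 SE with spironolactone. *Egr2*, which is also a factor of alternatively activated macrophages, was at 59.4, 62.9, and 52.1 CPM in vehicle, 59.6, 54.1, and 39.0 CPM in spironolactone, and 68.7, 61.0, and 54.5 CPM in prednisolone libraries. Its log2 fold change was 0.08 ± 0.14 SE with prednisolone and −0.19 ± 0.14 SE with spironolactone, and the ranges again overlapped.

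*Egr3* was the one gene of the 10 with all prednisolone libraries above vehicle. It was at 9.34, 10.3, and 10.6 CPM in vehicle, 8.13, 12.2, and 10.2 CPM in spironolactone, and 13.4, 13.5, and 11.2 CPM in prednisolone libraries. With prednisolone its log2 fold change was 0.34 ± 0.16 SE (adjusted p = 0.352, edgeR), and 10.4% of all genes tested had all prednisolone libraries above vehicle. With spironolactone it was 0.02 ± 0.16 SE. *Egr3* had the lowest count of the 10, 257 in a library, which alone gives a counting error of 6.24%.

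Of the NR4A genes none passed the test in any comparison by edgeR, DESeq2, or limma-voom, and 1 was at an unadjusted p below 0.05 by edgeR, *Nr4a1* with spironolactone against vehicle. *Nr4a1*, also called Nur77 and needed for Ly6C-low monocytes, was at 806, 796, and 830 CPM in vehicle, 563, 704, and 568 CPM in spironolactone, and 842, 644, and 519 CPM in prednisolone libraries. The vehicle libraries were close together and above all spironolactone libraries, whereas the prednisolone libraries spanned the range of both and held the lowest value of the 9. Its log2 fold change with spironolactone was −0.41 ± 0.15 SE (adjusted p = 0.414, edgeR), and with prednisolone −0.28 ± 0.15 SE (adjusted p = 0.438).

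*Nr4a2*, also called Nurr1, was at 36.4, 43.9, and 36.9 CPM in vehicle, 22.5, 30.7, and 19.6 CPM in spironolactone, and 52.1, 40.1, and 19.8 CPM in prednisolone libraries. All spironolactone libraries were below vehicle, and the highest and close to the lowest of all 9 values were both in the prednisolone group. Fitted changes on the log2 scale were −0.69 ± 0.33 SE with spironolactone (adjusted p = 0.581, edgeR) and −0.06 ± 0.33 SE with prednisolone. Between the drugs it was −0.62 ± 0.33 SE (adjusted p = 0.318, edgeR), and −0.93 with an adjusted p of 0.0219 without prednisolone replicate 3. Over all alternatives the adjusted p ranged from 9.38e-06 to 0.641. The lowest came from edgeR without the low-count filter, where the spread of the gene came wholly from the trend over genes.

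*Nr4a3*, also called Nor1, was at 69.8, 79.6, and 69.1 CPM in vehicle, 41.1, 78.7, and 46.6 CPM in spironolactone, and 85.5, 77.7, and 46.7 CPM in prednisolone libraries. One library of spironolactone was at the vehicle level and the other two were below it, and in prednisolone 1 of 3 was below. Its log2 fold change was −0.39 ± 0.29 SE with spironolactone and −0.06 ± 0.29 SE with prednisolone.

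Over the 10 genes, prednisolone gave 8 lower and 2 higher fitted changes, with a median log2 fold change of −0.17 next to −0.01 over all genes tested. At an unadjusted p below 0.05 there were 4 genes, *Ier2*, *Ier3*, *Ier5*, and *Btg2*, all of them lower, where 7.07% of all genes were lower at that p. All 3 prednisolone libraries were below vehicle for 3 genes, *Ier3*, *Ier5*, and *Btg2*, where 9.27% of all genes were.

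Spironolactone gave 9 lower changes and 1 higher, with a median of −0.23 next to 9.04e-05 over all genes. That median was −0.40 without spironolactone replicate 2 and −0.37 without vehicle replicate 1. It was closest to no change, at −0.18, without vehicle replicate 2. None of the 10 passed the test by edgeR, nor by DESeq2 or limma-voom, where 0.0181% of all genes passed by edgeR. At an unadjusted p below 0.05 there were 2 genes, *Ier3* and *Nr4a1*, both lower, where 4.07% of all genes were lower at that p. This number was 5 without spironolactone replicate 2, where 1596 of all 17124 genes were at that p in either direction. It was 1 without spironolactone replicate 3 (1118 of 17100 genes) and 4 with a replicate block (1608 of 16618 genes). Without the low-count filter it was 5 (2387 of 29739 genes), in a fit whose spread for the 10 genes came wholly from the trend over genes. All 3 spironolactone libraries were below vehicle for 3 genes, *Ier3*, *Nr4a1*, and *Nr4a2*, where 6.5% of all genes were. The 10 genes share libraries and inputs, so that these counts are not 10 separate observations.

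**Figure D2:**
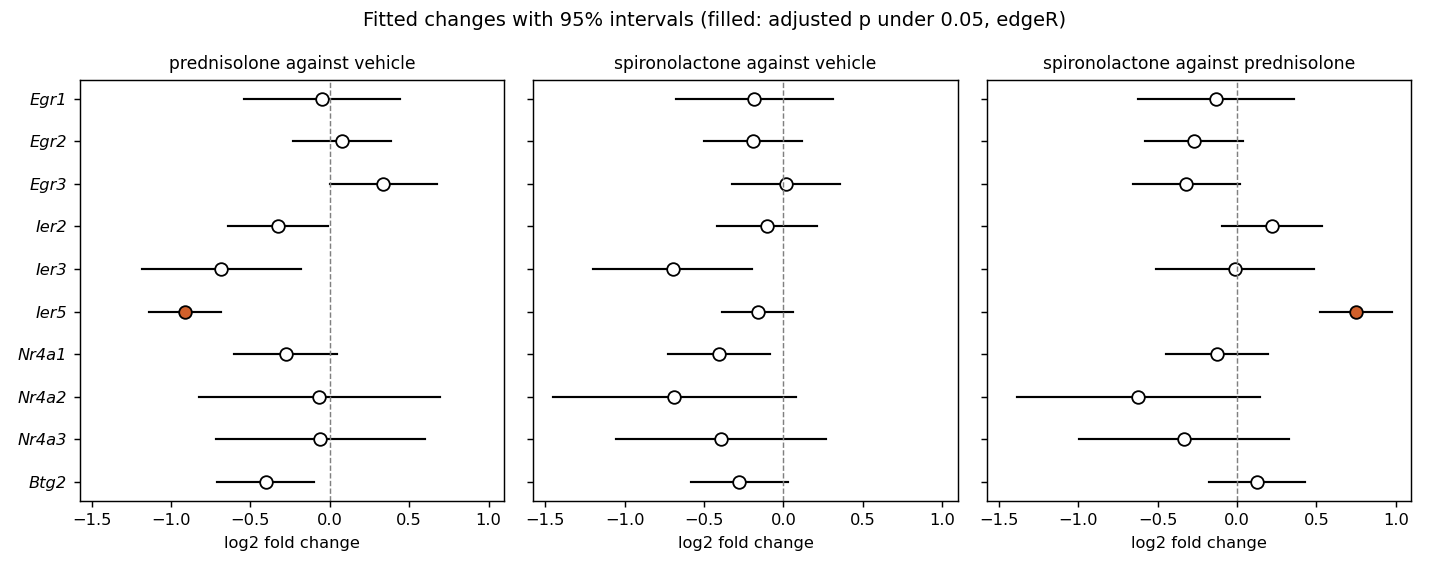
Fitted log2 fold change (points) and 95% interval (lines) of each gene in the 3 comparisons, with a filled point where the adjusted p of edgeR is below 0.05. The filled points are those of *Ier5*, −0.91 for prednisolone against vehicle and 0.75 for spironolactone against prednisolone, and the intervals of *Nr4a2* and *Nr4a3* are the widest.

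Within the prednisolone group the 10 genes moved with the library, and in the other groups part of them did. Prednisolone replicate 3 was the lowest of its group for all 10 genes and replicate 1 the highest for 9, whereas over all genes tested replicate 3 was lowest for 33.7% and replicate 1 highest for 35.1%. In spironolactone, replicate 1 was lowest for 7 of the 10 (37.7% of all genes) and replicate 2 highest for 7 (30.2%). *Ier5* (381, 346, and 324 CPM) and *Egr2* (59.6, 54.1, and 39.0 CPM) went the other way, highest in spironolactone replicate 1. In vehicle, replicate 1 was lowest for 7 (39.9%). Averaged over the 10 genes, the level relative to the mean of each gene was 0.20, 0.00434, and −0.39 on the log2 scale in prednisolone libraries 1 to 3, −0.31, 0.13, and −0.21 in spironolactone libraries, and 0.05, 0.29, and 0.24 in vehicle libraries. Prednisolone library 1 thus lay within the vehicle range and libraries 2 and 3 below it.

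The prednisolone median of the 10 genes was −0.02 without prednisolone replicate 3 and −0.39 without replicate 1. That of *Ier5* remained between −1.01 and −0.83 whichever library was left out. Prednisolone replicates 1 and 3, the extremes for these genes, were alike in depth (32943512 and 32856170 counts on genes) and in the share of 9 mitochondrial transcripts (4.12% and 3.96%). Their summed neutrophil markers were 852 and 675 CPM and their summed monocyte markers 789 and 828 CPM. They differed more in summed erythroid markers (64.0 and 37.1 CPM) and in summed lymphocyte markers (3.98 and 7.16 CPM). The part of any of these in the spread was not tested.

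**Figure D3:**
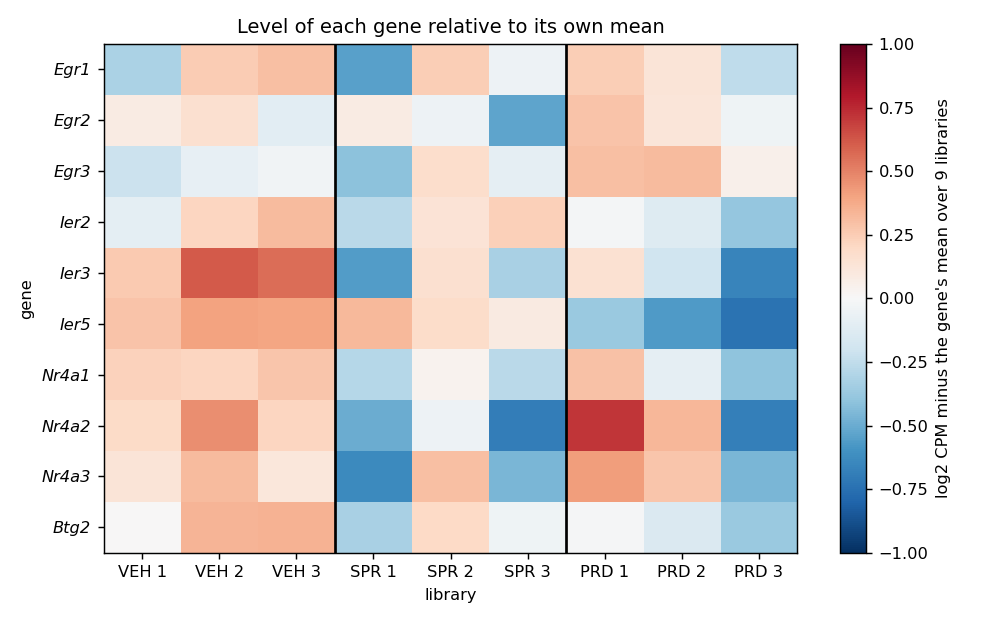
Level of each gene (rows) in each library (columns) on the log2 CPM scale, relative to the mean of that gene over 9 libraries, with red above and blue below the mean. The column of PRD 3 is below the mean in all rows but that of *Egr3*, and the row of *Ier5* is blue in the 3 PRD columns and red in the other 6.

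The genes differed in how much they varied. The SD within groups was largest for *Nr4a2* (0.47 on the log2 scale), *Nr4a3* (0.40), *Egr1* (0.34), and *Ier3* (0.33). In a root mean square difference of centred log2 CPM over the 9 libraries, the closest pairs of the 10 were *Ier2* and *Btg2* (0.11) and *Nr4a1* and *Btg2* (0.17), and the farthest was *Ier5* and *Nr4a2* (0.61). Of all other genes, the nearest to the mean profile of the 10 was *Trib1*, a pseudokinase scaffold, at a difference of 0.07, where a flat profile would be at 0.24. It was followed by *Gm7308*, *Insig1*, *Coq10b*, *Nup43*, *Arl5b*, *Phlda1*, *Vamp2*, *Pvr*, and *Mcl1*, at 0.09 to 0.12. Nearest to *Egr1* alone were *Slc16a3*, *Tcrb*, and *Arl4a*, to *Nr4a1* *Coq10b*, *Arl5b*, and *Csrnp1*, and to *Ier2* *Pdcd10*, *Cks2*, and *Mpc1*, at 0.09 to 0.11. These likenesses are across 9 libraries in 3 groups and have no test.

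Of the other immediate early genes, 10 fell with prednisolone and none rose by edgeR, where 0.758% of all genes tested passed as lower, and 15 passed by DESeq2, which called 4.64% of all genes with an adjusted p. Of 34 listed, 33 were tested (*Egr4* was not), and 29 had lower and 4 higher fitted changes. In order of p the 10 that passed were the clock and immediate early gene *Per1* (log2 fold change −1.22), the stress factor *Atf3* (−1.07), the small GTPase *Rhob* (−0.71), the AP-1 subunit *Jun* (−1.06), the growth arrest gene *Gadd45b* (−0.97), the MAP kinase phosphatase *Dusp2* (−0.89), *Junb* (−0.68), *Dusp1* (−0.70), the messenger decay factor *Zfp36* (−0.66), and the zinc finger factor *Klf6* (−0.47), with adjusted p of 0.00436 to 0.0464 by edgeR. *Jun* was at 1543, 1229, and 1132 CPM in vehicle, 1260, 1026, and 1067 CPM in spironolactone, and 762, 623, and 486 CPM in prednisolone libraries. Its prednisolone values were below all others, and its vehicle and spironolactone values overlapped. The median of the 33 was −0.46.

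Prednisolone replicate 3 was the lowest of its group for 31 of the 33 as well. Without it 6 of the 33 passed, *Per1*, *Atf3*, *Rhob*, *Jun*, *Gadd45b*, and *Dusp2*, where 119 of all 17154 genes tested did. Without prednisolone replicate 2, 5 passed, where 69 of all 17158 genes tested did. With spironolactone 28 of the 33 had lower changes, with a median of −0.40. None passed by edgeR or limma-voom and 6 did by DESeq2 (1.6% of all genes with an adjusted p by that tool), and 19 were lower at an unadjusted p below 0.05, where 4.07% of all genes were. Between the drugs 4 passed, *Jun*, *Rhob*, *Gadd45b*, and *Atf3*, all higher with spironolactone by 0.48 to 0.84 on the log2 scale, where 2.38% of all genes passed as higher, and 9 passed by DESeq2 (10.1% of all genes). Of these 4, *Jun* alone passed without prednisolone replicate 3 (adjusted p = 0.0370, edgeR, with a range of 7.86e-11 to 0.0595 over all alternatives), and that call was lost without prednisolone replicate 2.

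**Figure D4:**
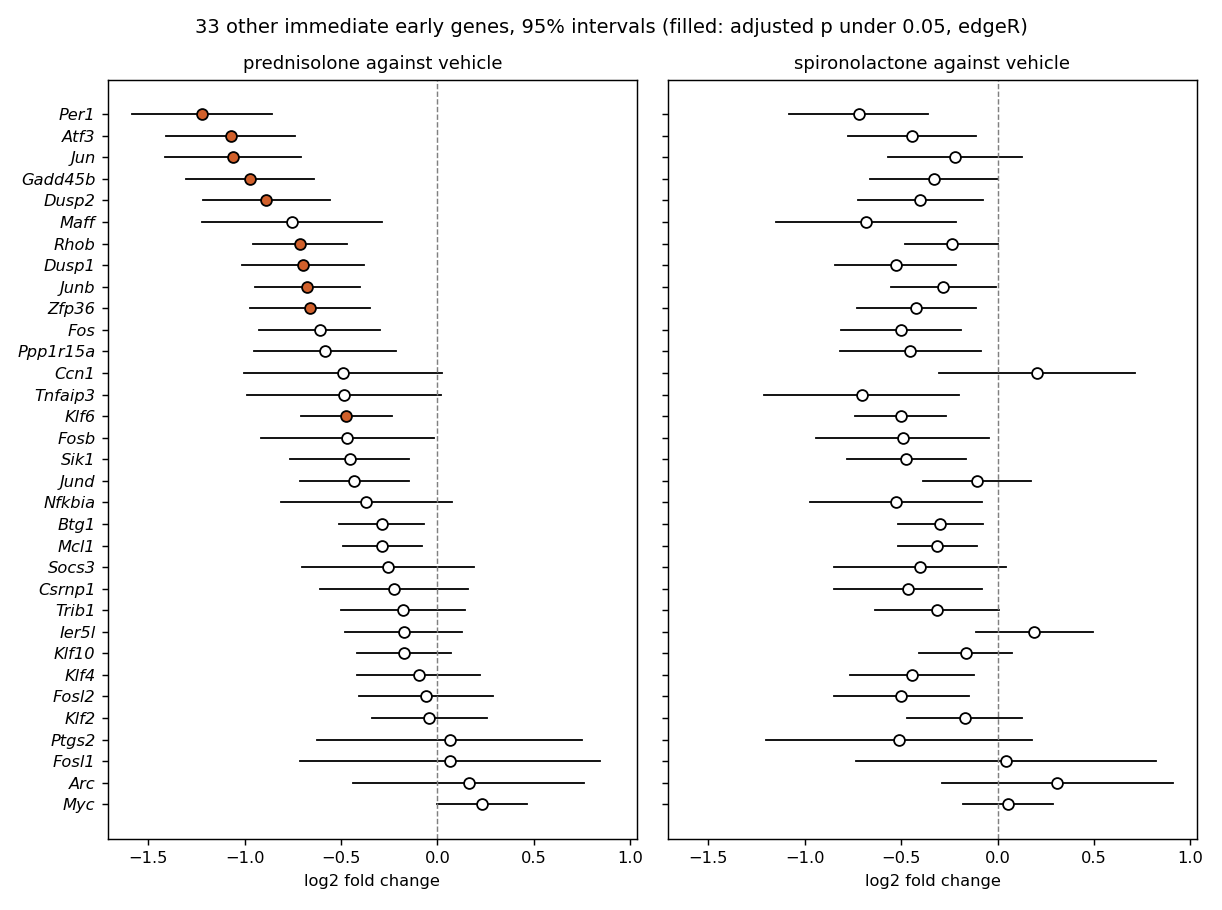
Fitted log2 fold change (points) and 95% interval (lines) of the 33 other immediate early genes with each drug against vehicle, ordered by the change with prednisolone, with a filled point where the adjusted p of edgeR is below 0.05. In both panels most points lie left of 0, and 10 are filled with prednisolone and none with spironolactone; both panels use the same vehicle libraries.

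Genes that carry signals to the immediate early genes were listed next. Of 24 kinases, SRF and its ETS and MRTF partners, and CREB factors and coactivators, none passed against vehicle with either drug by edgeR, DESeq2, or limma-voom, with 4 at an unadjusted p below 0.05 with prednisolone, all higher (7.13% of all genes), and 1 with spironolactone, lower (4.07% of all genes). Between the drugs 20 of the 24 had lower changes with spironolactone, and 8 were lower at an unadjusted p below 0.05, where 11.1% of all genes were. There, 1 of the 24 passed by edgeR and limma-voom, where 5.17% of all genes passed by edgeR, and 4 passed by DESeq2, where 10.1% of all genes did, so that the count by edgeR is near the share over all genes. The gene that passed by edgeR was *Rps6ka3*, which encodes the kinase RSK2 and was lower with spironolactone (−0.44 ± 0.10 SE, adjusted p = 0.0201, edgeR). That call held in 5 of the 9 fits without a library and was lost without prednisolone replicate 1, 2, or 3 or spironolactone replicate 3. Its adjusted p ranged from 0.00110 to 0.0940 over all alternatives, which include edgeR, DESeq2, and limma-voom. Of 16 tested protein partners, such as the EGR corepressors NAB1 and NAB2, the RXR partners of NR4A, and the CCR4-NOT subunits of BTG2, none passed in any comparison by edgeR or limma-voom. With DESeq2, 1 partner passed for spironolactone against vehicle and 1 between the drugs, where 1.6% and 10.1% of all genes did. By edgeR 1, 3, and 5 were at an unadjusted p below 0.05 for prednisolone, spironolactone, and the difference between the drugs, where 14.2%, 9.29%, and 22.5% of all genes were.

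Among 11 heat shock genes, whose transcription IER5 is known to influence, 2 passed with prednisolone by edgeR, both lower, the HSP70 genes *Hspa1a* and *Hspa1b*, where 0.758% of all genes passed as lower, and 3 passed by DESeq2 (4.64% of all genes). *Hspa1a* was at 345, 375, and 367 CPM in vehicle, 355, 377, and 430 CPM in spironolactone, and 261, 261, and 245 CPM in prednisolone libraries. As for *Ier5*, its prednisolone libraries were below all others. Its log2 fold change with prednisolone was −0.50 ± 0.09 SE (adjusted p = 0.0152, edgeR), that of *Hspa1b* was −0.41 ± 0.09 SE (adjusted p = 0.0448), and *Hspa1b* ranged from 283 to 297 CPM in prednisolone and from 373 to 399 CPM in vehicle libraries. These genes are near-identical copies, and reads can be split or lost between them in counting.

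Between the drugs both HSP70 genes were 0.60 higher on the log2 scale with spironolactone, and they passed without each library in turn (adjusted p up to 0.0267). With prednisolone against vehicle *Hspa1a* passed in 5 and *Hspa1b* in 3 of the 9 fits without a library, and in 8 and 5 of the 8 other analyses. Both calls were lost without vehicle replicate 2 and without any one of the prednisolone replicates, and that of *Hspa1b* also without vehicle replicate 3 or spironolactone replicate 2. *Hsph1*, which encodes an HSP110 chaperone, went the other way. It was at 87.0, 83.4, and 82.2 CPM in vehicle, 77.6, 77.3, and 86.1 CPM in spironolactone, and 102, 116, and 101 CPM in prednisolone libraries. All prednisolone libraries were above all others, with a log2 fold change against vehicle of 0.34 ± 0.09 SE that did not pass (adjusted p = 0.0702, edgeR), and *Hsph1* was lower with spironolactone than with prednisolone (−0.41 ± 0.09 SE, adjusted p = 0.0185, edgeR). The latter call held in 7 of the 9 fits without a library and was lost without prednisolone replicate 2 (adjusted p = 0.0949) and without spironolactone replicate 2 (adjusted p = 0.0727). The list as a whole had 6 lower and 5 higher changes with prednisolone. With spironolactone against vehicle none passed by edgeR, DESeq2, or limma-voom. By edgeR 1 was at an unadjusted p below 0.05, where 9.29% of all genes were. Whether the changes of the heat shock genes are linked to that of *Ier5* was not tested.

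**Figure D5:**
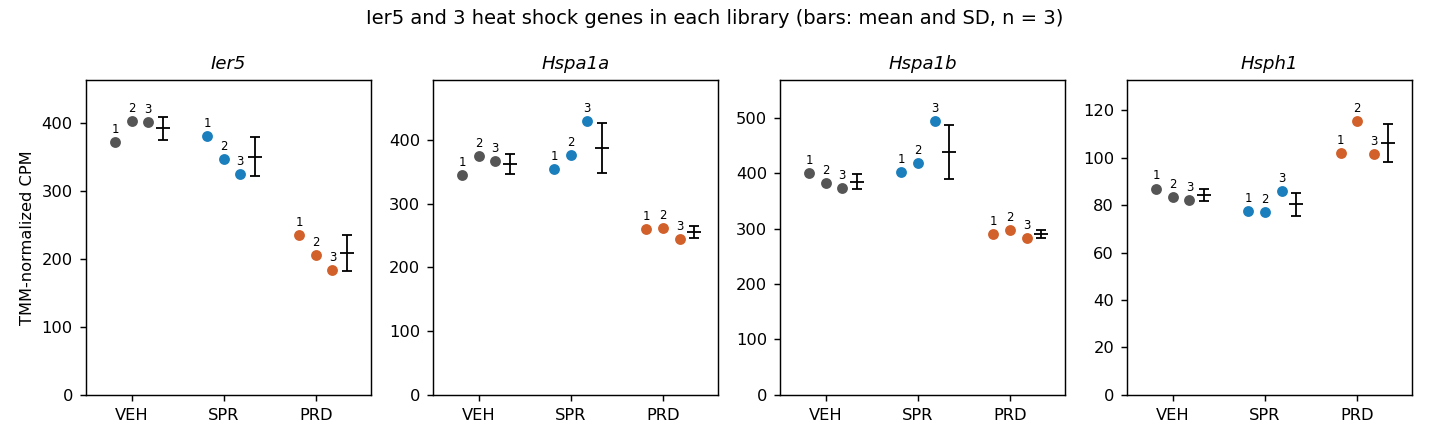
Level in CPM of *Ier5* and of the heat shock genes *Hspa1a*, *Hspa1b*, and *Hsph1* in each library, with replicate numbers and the mean and SD (n = 3) as bars. *Ier5*, *Hspa1a*, and *Hspa1b* have all PRD points below all VEH and SPR points, and *Hsph1* has all PRD points above them.

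RNA of sorted bulk cells cannot tell fewer cells of a type from less RNA per cell. The 8 myeloid markers, *Ptprc* and *Itgam* among them, summed to 15998 to 18793 CPM in vehicle, 16340 to 18010 in spironolactone, and 17819 to 19083 in prednisolone libraries, and none of them was at 0. *Itgam*, which encodes CD11b, was lower with spironolactone than with prednisolone (−0.43 ± 0.11 SE, adjusted p = 0.0353, edgeR). It was the one myeloid marker of 8 to pass between the drugs, where 2.79% of all genes passed as lower. That call held in 4 of the 9 fits without a library. The 7 neutrophil markers summed to 662 to 4026 CPM in vehicle, 1157 to 3048 in spironolactone, and 675 to 877 in prednisolone libraries. Vehicle replicates 1, 2, and 3, with 662, 905, and 4026 CPM of neutrophil markers, had *Ier5* at 372, 403, and 401 CPM. Spironolactone replicates, with 1157, 1384, and 3048 CPM of these markers, had it at 381, 346, and 324 CPM. Prednisolone replicates, with 852, 877, and 675 CPM, had it at 236, 206, and 183 CPM. The part of neutrophils in the level of *Ier5* was not tested.

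The 3 monocyte markers summed to 629 to 1228 CPM in vehicle, 896 to 1028 in spironolactone, and 600 to 828 in prednisolone libraries. Beside the lower *Ier3*, *Nr4a1*, and *Nr4a2* values with spironolactone, markers of other cells were higher in that group. The 6 endothelial markers summed to 108 to 168 CPM against 49.1 to 85.3 in vehicle, the 5 erythroid markers to 186 to 305 against 70.2 to 135, the 8 lymphocyte markers to 9.67 to 14.6 against 4.68 to 8.41, and the 6 skeletal muscle markers to 337 to 574 against 179 to 276 CPM. With prednisolone these sums were 62.3 to 86.3, 37.1 to 79.7, 3.98 to 7.16, and 276 to 419 CPM, and the 5 fibroblast markers summed to 481 to 664 in vehicle, 628 to 924 in spironolactone, and 604 to 656 CPM in prednisolone libraries. Between the drugs, the comparison in which *Ier5* and *Jun* also passed, 4 of 5 erythroid, 3 of 8 lymphocyte, and 2 of 6 endothelial markers were called higher with spironolactone by edgeR, where 2.38% of all genes were, with list medians of 1.97, 1.95, and 1.03 on the log2 scale. No list had a marker at 0 in all libraries of a group. The share of 9 mitochondrial transcripts was 7.41%, 6.36%, and 7.48% in spironolactone and 3.50%, 5.24%, and 4.90% in vehicle libraries. In prednisolone libraries it was 4.12%, 6.88%, and 3.96%. Reads without a unique alignment were 9.71%, 9.42%, and 10.4% of spironolactone and 6.81%, 8.60%, and 8.30% of vehicle libraries. In prednisolone libraries they were 7.53%, 9.43%, and 7.17%. Both were higher in all spironolactone than in all vehicle libraries. *Xist*, a transcript of female cells, was at 318, 217, and 508 CPM in vehicle libraries 1 to 3. It was at 712, 380, and 65.3 CPM in spironolactone and 489, 301, and 303 CPM in prednisolone libraries, so that pools within a group differed in it. The part of these cells, shares, and levels in the results was not tested.

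In position, *Egr1* is on chromosome 18, *Ier3* on 17 (chr17:36132568-36133815), *Nr4a1* on 15 (chr15:101151980-101172681), and *Nr4a2* on 2 (chr2:56996842-57014331) of GRCm39. *Egr2*, *Ier3*, *Nr4a1*, *Nr4a3*, and *Btg2* overlap an annotated gene on the opposite strand, and *Ier5* and *Nr4a1* one on the same strand, the former *Gm69473*. The strand setting of the counting is not given in the sources used here, so that reads of an overlapping gene cannot be told apart from those of these 6. *Egr1*, *Egr3*, *Ier2*, and *Nr4a2* overlap no other gene.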

How the data were processed

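Gene counts of 9 libraries were used, 3 per group. The authors deposited whole-number counts per gene without normalization, made by alignment to mm39 with HISAT2 2.2.1 and counting with HTSeq 0.11.3, versions per the labels' processing notes. Gene counts ranged from 31469815 to 32943512 per library, and closing lines that name no gene, 17.2% to 21.8% of each library, were left out. Tables of the authors' own DESeq2 1.32.0 comparisons (fold changes and p-values) were not used.

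Counts were normalized by TMM (factors 0.980 to 1.03) and filtered with filterByExpr (minimum count 10, minimum total 15), which left 16618 of 50559 genes. All 9 libraries were fitted with edgeR 4.0.16 (quasi-likelihood, robust=TRUE) in R 4.3.3, as a two-sided test, and p-values were adjusted over all genes by the Benjamini-Hochberg method (threshold 0.05). Levels are TMM-normalized CPM, log2 CPM used a prior count of 2, and SE and intervals are from the quasi-likelihood fit. P-values measure the spread between pools. TPM used GENCODE exon lengths on GRCm39, the same assembly as mm39, found for 40043 symbols. The upstream sequence of 1 of the 10 genes is not reported here. Counts of libraries within a group differed beyond sampling noise (chi-square 18.2 to 58.6 per degree of freedom).

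The 10 genes and the lists of other genes were chosen with earlier results of these data known. Named were the 10 genes, genes of the lists of immediate early genes, inputs, partners, and heat shock genes past the threshold in any comparison, the 5 other immediate early genes with the smallest p with prednisolone, and the nearest profiles (10 to the mean of the 10 genes, 3 each to *Egr1*, *Nr4a1*, and *Ier2*). The profiles nearest to *Ier5* were chosen after their values were seen. Cell type lists were myeloid, neutrophil, monocyte, lymphocyte, endothelial, skeletal muscle, fibroblast, and erythroid. Alternatives were DESeq2 1.42.0, limma-voom (limma 3.58.1), RLE, library totals, no low-count filter, robust=FALSE, a replicate block, only the 2 groups compared, and leaving out each library. The fits were tested on simulated data with known changes.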

Additional observations from a re-analysis of the deposited data

How the results depend on the processing

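Calls of *Ier5* were made in every alternative run, and no change of scaling turned the direction of any of the 10 genes (shift of the median gene at most 0.04). With prednisolone, 293 genes passed, 684 with DESeq2, 1019 without the low-count filter, and 69 to 826 without a library (69 without prednisolone replicate 2, 826 without vehicle replicate 1). With spironolactone, 3 passed, 263 with DESeq2, 528 without the filter, 8 with a replicate block, and 0 to 34 without a library. It was 0 with robust=FALSE and with limma-voom, where 1553 and 1587 genes had an unadjusted p below 0.05, and 0 without vehicle replicate 3, spironolactone replicate 3, or prednisolone replicate 2 (1487, 1118, and 1413 at an unadjusted p below 0.05). Between the drugs, 859 passed, 1594 with DESeq2, 1940 without the filter, 1598 with only the 2 groups, and 232 to 1898 without a library. Without the low-count filter, 29739 genes were tested, of which 1019 passed with prednisolone, 528 with spironolactone, and 1940 between the drugs. Of the 10 genes, 3 passed there with prednisolone (*Ier5*, *Ier3*, *Btg2*), 4 with spironolactone (*Ier3*, *Nr4a2*, *Nr4a1*, *Nr4a3*), and 3 between the drugs (*Ier5*, *Nr4a2*, *Nr4a3*). In that fit the spread of each of the 10 genes came wholly from the trend over genes (infinite prior degrees of freedom, 1.76 to 7.76 in the main analysis). Between the drugs, 1 to 2 of the 10 passed without a library, 2 without prednisolone replicate 3.

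Directions turned only when a library was left out. With prednisolone, log2 fold changes ranged from −0.22 to 0.084 for *Egr1*, −0.0092 to 0.16 for *Egr2*, −0.38 to 0.24 for *Nr4a2*, and −0.23 to 0.16 for *Nr4a3*. With spironolactone they ranged from −0.38 to 0.0032 for *Egr1*, −0.13 to 0.16 for *Egr3*, and −0.22 to 0.035 for *Ier2*. Between the drugs they ranged from −0.33 to 0.052 for *Egr1*, −0.24 to 0.20 for *Ier3*, −0.012 to 0.25 for *Btg2*, and −0.28 to 0.073 for *Nr4a1*. None of these passed the test. The number of other immediate early genes called, an alternative added after seeing the data, ranged from 5 to 14 with prednisolone, 0 to 1 with spironolactone, and 0 to 6 between the drugs without a library. It was 17, 18, and 11 without the filter, where 1019, 528, and 1940 of all 29739 genes passed. The median prior degrees of freedom of that fit were infinite, so that its spread came from the trend over genes.

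Libraries with the same replicate number in different groups had deviations correlated at −0.04 to 0.15 across genes (9 pairs). For other pairs (18) the correlation was −0.17 to 0.04. The highest values were those of vehicle and spironolactone replicates 3 (0.15) and replicates 1 (0.12), and that of their replicates 2 was 0.00484. Same-number pairs with a prednisolone library were at −0.04 to 0.02. The numbers are not stated to pair pools, and the main fit had no block. Whether the numbers mark a shared batch was not tested. The replicate block gave 336 and 1082 calls with prednisolone and between the drugs and changed no call of the 10 genes. The lowest count of the 10 genes in a library was 257, which gives a counting error of 6.24%, and the effect of depth was not tested. The cause of the other shifts was not tested.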

Other observations

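The 5 genes with profiles nearest to *Ier5*, chosen after its values were seen, were *Id3*, *4930430E12Rik*, *Gadd45g*, *Rhob*, and *Arl5c*, at a root mean square difference of 0.11 to 0.15 on the log2 scale, where a flat profile would be at 0.41. *Arl5c*, which encodes a small GTPase of the ARF family, was at 41.5, 38.9, and 34.3 CPM in vehicle, 33.7, 37.5, and 29.9 CPM in spironolactone, and 24.7, 21.3, and 21.9 CPM in prednisolone libraries. *Gadd45g*, a stress sensor of the family of *Gadd45b*, was at 56.5, 53.3, and 53.3 CPM in vehicle, 56.2, 54.6, and 56.2 CPM in spironolactone, and 37.4, 33.6, and 25.2 CPM in prednisolone libraries. All prednisolone libraries were below all others for both genes. Likeness to *Ier5* was the criterion of the choice, so that these values are a description with no test.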
